A study of Rattus norvegicus with 12 samples.

Results

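The genes described here are those of the melanocyte, the pigment cell of the neural crest: Tyrp1, Dct, Pmel, Tyr, Mlana, Mitf, Kit and Ednrb. A gene was counted as measured when the array annotation gave at least 1 probe set with that gene symbol alone, which held for 7 of the 8 genes, with 9 probe sets, out of 14217 genes in all. Ednrb, the receptor of endothelin 3, was not named by a probe set of this kind and was not analysed here. The set was chosen by the measured difference of Tyrp1 between E2 and CAS, where Tyrp1 was higher, so the E2 against CAS values are given as a description and are not tested.

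RNA came from the right tibia of female Sprague-Dawley rats at postnatal day 34, taken after the marrow had been aspirated. There were 4 groups of 3 arrays each: a casein diet (CAS), a soy protein isolate diet (SPI), the casein diet with 17β-estradiol (E2), and the soy diet with E2 (SPI+E2). E2 was given by a subcutaneous pump at 10 µg/kg/d for 14 days, and all dams had been fed casein. The authors weaned the rats onto their diets at postnatal day 20 and fed them for 14 days. The sample labels instead give day 21 as the start. The RNA on an array was a pool from 2 to 3 rats, so SDs, SEs and p-values measure the spread between pools. The deposited values are log2 values that the authors centred on the median of the 12 arrays for each probe set, so they hold differences between arrays and no absolute level, and neither the presence of melanocytes nor that of bone cells can be read from them. In whole tissue, fewer cells of a type and less RNA per cell cannot be told apart. SPI 1 had the widest values of any array (SD over probe sets 0.211, against 0.128 to 0.164 in the other arrays). The main SPI differences of Pmel, Mitf and Kit are therefore also given without it.

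Melanin is made in melanosomes. Tyrosinase (Tyr) oxidises tyrosine in the first step, and Dct and Tyrp1, which belong to the same enzyme family, act on later intermediates of black and brown pigment. Pmel forms the fibrils on which pigment is laid down, and Mlana is a small protein of the melanosome membrane. Mitf is the transcription factor that drives these genes, by binding a sequence called the M-box, and it also acts in osteoclasts and mast cells. Kit, the receptor of stem cell factor, is needed by melanoblasts, mast cells and blood progenitors alike. Sprague-Dawley rats are albino through loss of tyrosinase function, so their melanocytes carry no pigment.

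The promoters are shown because Tyrp1, Dct, Tyr and Mlana share the core of the M-box. Each line gives the 250 bases before a RefSeq transcript start (GRCr8), 5′ to 3′ along the gene, with the 7-letter core TCATGTG, or its reverse complement, in capitals.
Tyrp1, chr5:100326875-100327124, plus strand: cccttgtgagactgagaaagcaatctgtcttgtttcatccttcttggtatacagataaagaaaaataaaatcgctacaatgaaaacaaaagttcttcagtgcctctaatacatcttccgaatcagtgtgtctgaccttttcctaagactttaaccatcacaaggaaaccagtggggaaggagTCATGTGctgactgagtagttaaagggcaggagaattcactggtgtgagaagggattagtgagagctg
Dct, chr15:101508030-101508279, minus strand: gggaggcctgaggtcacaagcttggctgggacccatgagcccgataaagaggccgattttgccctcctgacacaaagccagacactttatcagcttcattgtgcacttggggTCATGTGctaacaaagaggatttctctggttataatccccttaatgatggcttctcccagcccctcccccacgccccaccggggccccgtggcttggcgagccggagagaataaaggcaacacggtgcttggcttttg
Tyr, chr1:150622858-150623107, minus strand: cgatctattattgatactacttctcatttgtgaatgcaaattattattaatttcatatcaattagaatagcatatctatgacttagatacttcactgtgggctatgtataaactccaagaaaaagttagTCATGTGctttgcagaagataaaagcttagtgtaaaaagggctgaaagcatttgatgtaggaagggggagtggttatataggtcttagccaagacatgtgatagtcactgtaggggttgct
Mlana, chr1:236882825-236883074, plus strand: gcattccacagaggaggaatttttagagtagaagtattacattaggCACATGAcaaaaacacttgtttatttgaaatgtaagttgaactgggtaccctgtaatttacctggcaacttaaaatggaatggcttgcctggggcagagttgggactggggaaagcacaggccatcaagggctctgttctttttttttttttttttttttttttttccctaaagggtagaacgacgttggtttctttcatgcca
The core was at positions -68 to -62 in Tyrp1, -138 to -132 in Dct and -121 to -115 in Tyr, counted back from the transcript start, and on the opposite strand at -204 to -198 in Mlana. It was in 3.07% of 33469 RefSeq promoter windows of the same length when both strands were searched. The windows of Pmel, Mitf, Kit and Ednrb did not hold these letters. Each gene was searched in a single window, so other transcript starts of a gene were not covered. The Pmel window (1722993 to 1723242) lay inside the Pmel locus given below. The core contains an E-box (CANNTG), and E-boxes were in 65.5% of all windows and in those of 7 of the 8 genes, Mitf being the exception. None of the 8 windows held CACGTG, found in 5.59% of all windows, or the palindromic estrogen response element, found in 0.0239%. A match of letters is not a measured binding site. On the same build Pmel lies on chromosome 7 (1721948 to 1733248), Mitf on chromosome 4 (131965676 to 132177790) and Kit on chromosome 14 (32901615 to 32978895).

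The arrays of Tyrp1 lay apart in all 4 groups, in the order CAS, SPI+E2, SPI and E2 from lowest to highest. The 3 CAS arrays read -0.57, -0.51 and -0.63 on the centred log2 scale, and the 3 SPI+E2 arrays -0.18, -0.21 and -0.29. The SPI arrays read 0.11, 0.15 and 0.22, and the E2 arrays 0.64, 0.48 and 0.68. No array of a group overlapped with one of a neighbouring group in this order. The mean was 1.17 log2 units higher in E2 than in CAS (SE 0.059, a 2.25-fold difference), 0.73 higher in SPI than in CAS (SE 0.059, 1.66-fold) and 0.34 higher in SPI+E2 than in CAS (SE 0.059, 1.27-fold). These 3 differences use the CAS arrays with which the gene was chosen, and they carry no test. By size, the E2 against CAS difference of Tyrp1 stood at place 8 of 14217 genes.

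**Figure D1:**
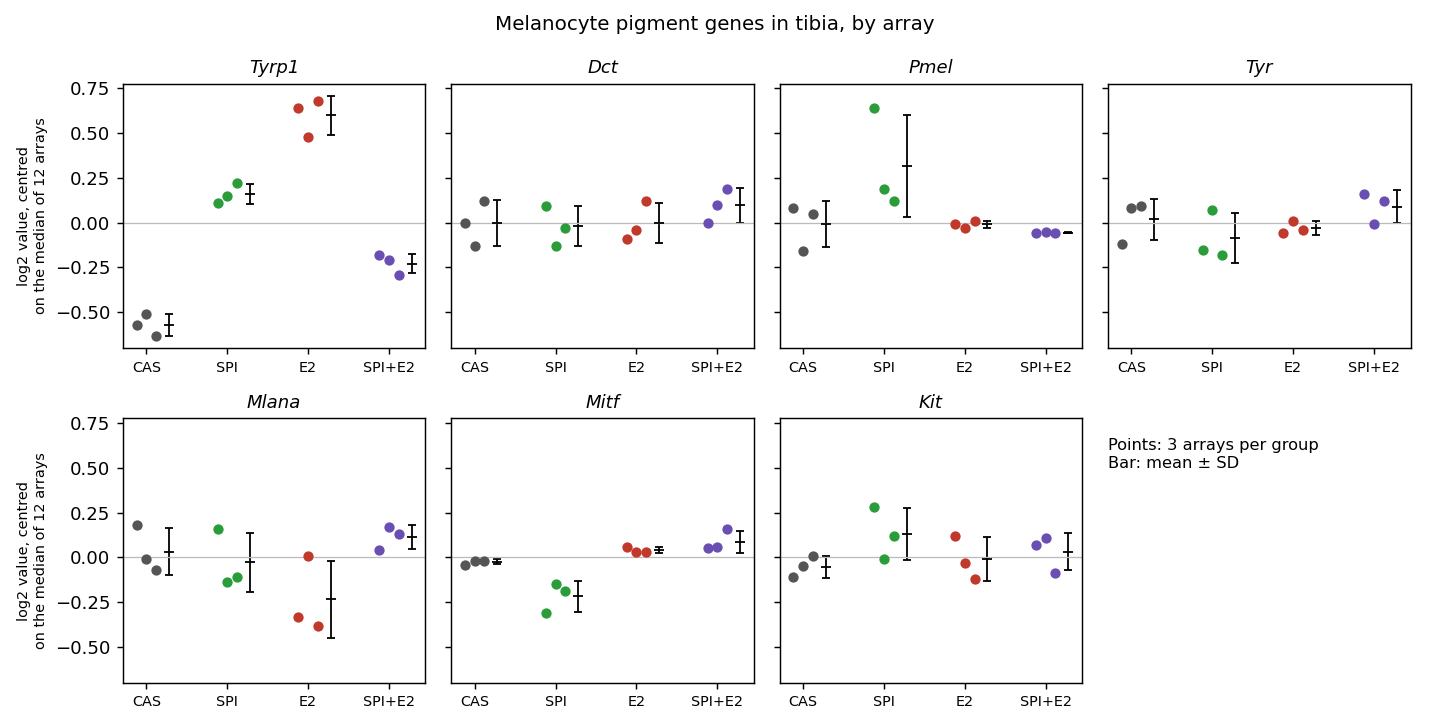
Centred log2 values of the 7 measured genes (vertical axis) in the 4 groups (horizontal axis), with 1 point for each array and, beside the points, the mean ± SD of 3 arrays. The 4 groups of Tyrp1 lie apart, from -0.63 in the lowest CAS array to 0.68 in the highest E2 array, while the groups of Dct, Tyr and Kit overlap.

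The comparison of SPI+E2 with SPI asks what E2 did in rats on the soy diet, and its arrays took no part in the choice of Tyrp1. Tyrp1 fell by 0.39 log2 units (SE 0.059, 95% interval -0.52 to -0.26, 1.31-fold lower, limma adjusted p = 0.000757), and it was lower in each SPI+E2 array than in any SPI array. E2 thus went with a higher Tyrp1 value on the casein diet and with a lower one on the soy diet. The fall passed the test in all 21 alternatives of the analysis, of which 1 (unmoderated variances) reads an unadjusted p. In the others the adjusted p ran from 0.000358 to 0.00493, the last with only the 2 groups fitted. The alternative with single probe sets takes only the more variable Tyrp1 set, and the other set alone did not pass (limma adjusted p = 0.121). Tyrp1 in SPI+E2 was also 0.83 log2 units below E2 (SE 0.059, not tested because the E2 arrays chose the gene).

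Tyrp1 was measured by 2 probe sets, which differed in size but gave the groups in the same order of means. For 1382819_at the CAS arrays read -0.66, -0.81 and -0.95, the SPI arrays 0.20, 0.19 and 0.27, the E2 arrays 0.83, 0.78 and 0.89, and the SPI+E2 arrays -0.34, -0.30 and -0.19. For 1385575_at they read -0.47, -0.22 and -0.32 in CAS, 0.03, 0.10 and 0.17 in SPI, 0.45, 0.17 and 0.48 in E2, and -0.03, -0.12 and -0.38 in SPI+E2. The first separated all 4 groups. In the second SPI+E2 overlapped with CAS, and the lowest E2 array was level with the highest SPI array. SPI+E2 against SPI was -0.50 for the first (SE 0.0709, limma adjusted p = 0.00068 over all probe sets) and -0.28 for the second (SE 0.105, adjusted p = 0.121).

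**Figure D2:**
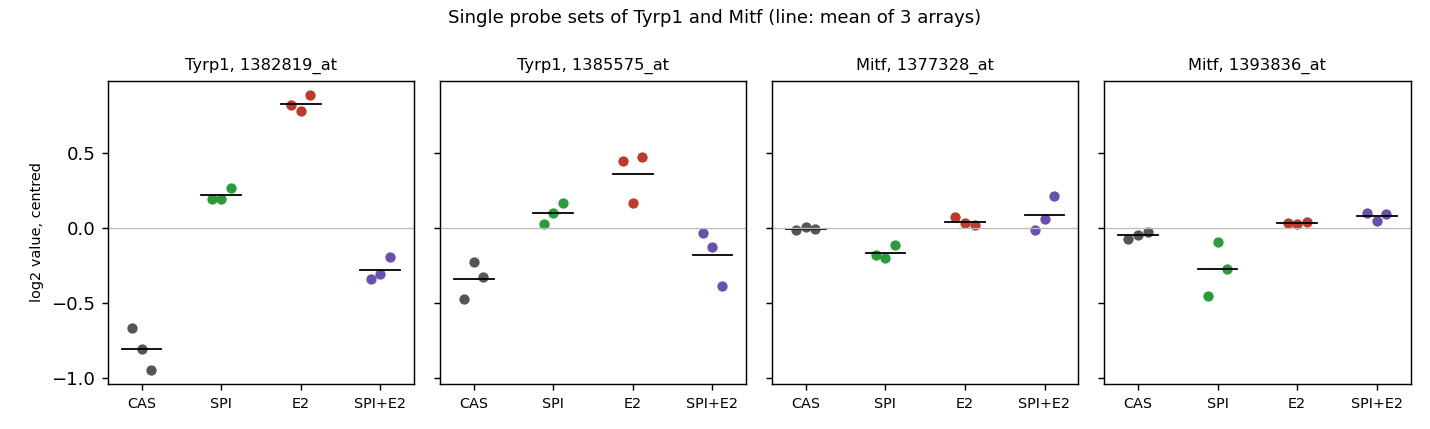
Centred log2 values (vertical axis) of the single probe sets of Tyrp1 (left pair) and Mitf (right pair) by group, 1 point for each array and a line at the mean of 3 arrays. The first Tyrp1 probe set spans -0.95 to 0.89 and the second -0.47 to 0.48, and both Mitf probe sets are lowest in SPI.

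Neither other enzyme of the family had a difference past the test. Dct, which acts beside it, had CAS arrays at 0.00, -0.13 and 0.12, SPI arrays at 0.09, -0.13 and -0.03, E2 arrays at -0.09, -0.04 and 0.12 and SPI+E2 arrays at 0.00, 0.10 and 0.19. All 4 groups overlapped. Its differences ran from -0.02 for SPI against CAS (95% interval -0.20 to 0.16, limma adjusted p = 0.901) to 0.12 for SPI+E2 against SPI (95% interval -0.06 to 0.30, adjusted p = 0.394), and E2 was at -0.0008 from CAS. Tyr read -0.12, 0.08 and 0.09 in CAS, -0.15, 0.07 and -0.18 in SPI, -0.06, 0.01 and -0.04 in E2, and 0.16, -0.01 and 0.12 in SPI+E2. Its neighbouring groups overlapped, and its largest difference, 0.18 for SPI+E2 against SPI (SE 0.0771, 95% interval 0.01 to 0.34), did not pass (limma adjusted p = 0.153). It passed in 1 of 21 alternatives, without SPI 2 (0.26, limma adjusted p = 0.0388).

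Of the melanosome proteins, Pmel had its highest arrays in SPI, and 1 of them stood far above the others. Its SPI arrays read 0.64, 0.19 and 0.12, and the 0.64 was SPI 1. CAS read 0.08, -0.16 and 0.05, E2 -0.01, -0.03 and 0.01, and SPI+E2 -0.06, -0.05 and -0.06. The SPI arrays lay above all others. Pmel was 0.32 log2 units higher in SPI than in CAS (SE 0.112, limma adjusted p = 0.0536, not past the test) and fell by 0.37 in SPI+E2 compared with SPI (SE 0.112, adjusted p = 0.04). Without SPI 1 these were 0.16 (adjusted p = 0.113) and -0.21 (adjusted p = 0.0541), and the second passed in 9 of 21 alternatives. Its call was also lost without CAS 3 (adjusted p = 0.0538), without any 1 E2 array (0.0547 to 0.0564) and without any 1 SPI+E2 array (0.0889 to 0.0932), with differences from -0.3733 to -0.37. With only the 2 groups fitted the limma adjusted p was 0.127. With trend and robust variances it was 0.0504, and with array weights or single probe sets 0.0563. The SD of Pmel was 0.2855 in SPI and 0.0032 in SPI+E2, and the main model pools the spread of all 4 groups. Pmel also read lower in every SPI+E2 array than in any E2 array, a mean difference of -0.05 log2 units (adjusted p = 0.822).

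Mlana was lowest in E2, where the arrays read -0.33, 0.01 and -0.38. CAS read 0.18, -0.01 and -0.07, SPI 0.16, -0.14 and -0.11, and SPI+E2 0.04, 0.17 and 0.13. The E2 arrays overlapped with CAS and SPI but not with SPI+E2. SPI+E2 was 0.35 log2 units above E2 (SE 0.11, 95% interval 0.11 to 0.59) and missed the threshold (limma adjusted p = 0.0538). Without E2 2, the E2 array nearest to 0, it was 0.47 (limma adjusted p = 0.0109). Without E2 1 it was 0.30 (adjusted p = 0.162) and without E2 3 it was 0.27 (adjusted p = 0.186). It passed in 6 of 21 alternatives.

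Mitf, the regulator, was lower in SPI than in CAS and higher in SPI+E2 than in SPI. It read -0.04, -0.02 and -0.02 in CAS, -0.31, -0.15 and -0.19 in SPI, 0.06, 0.03 and 0.03 in E2, and 0.05, 0.06 and 0.16 in SPI+E2. The SPI arrays lay below all others. Mitf fell by 0.19 log2 units in SPI compared with CAS (SE 0.0484, 1.14-fold, limma adjusted p = 0.0131), and without SPI 1 the difference was -0.14 (adjusted p = 0.0409). Neither of its 2 probe sets passed alone. The more variable, 1393836_at, was at -0.23 (limma adjusted p = 0.0535 over all probe sets) and 1377328_at at -0.16 (adjusted p = 0.092). Mitf was 0.30 higher in SPI+E2 than in SPI (SE 0.0484, 1.23-fold, limma adjusted p = 0.00109), 0.255 without SPI 1 (adjusted p = 0.00274), and this passed in all 21 alternatives. Mitf and Tyrp1 thus moved in opposite directions in this comparison. Against CAS, SPI+E2 was 0.11 higher (adjusted p = 0.16).

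Kit, the remaining receptor, showed no difference past the test. Its arrays read -0.11, -0.05 and 0.01 in CAS, 0.28, -0.01 and 0.12 in SPI, 0.12, -0.03 and -0.12 in E2, and 0.07, 0.11 and -0.09 in SPI+E2. All groups overlapped with their neighbours. The difference furthest from 0 was SPI against CAS, at 0.18 (SE 0.0832, 95% interval 0.0015 to 0.37, limma adjusted p = 0.133). Without SPI 1, the array at 0.28, this difference was 0.11 (limma adjusted p = 0.402).

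**Figure D3:**
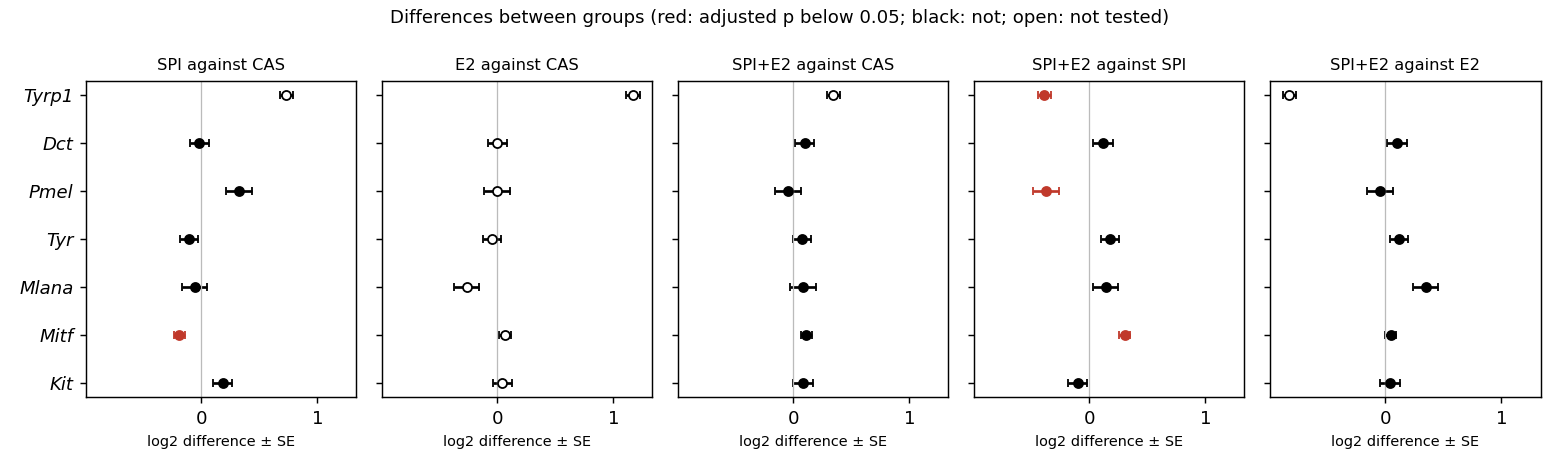
Log2 difference ± SE (horizontal axis) of each of the 7 genes in 5 comparisons, from limma over 12 arrays. Filled red points passed an adjusted p under 0.05, filled black points did not, and open points were not tested. In SPI+E2 against SPI, Tyrp1 (-0.39) and Pmel (-0.37) lie left of 0 and Mitf (0.30) right of it.

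Over the 7 genes, 3 passed for SPI+E2 against SPI, 1 higher and 2 lower, where 17.1% of all genes passed (9.12% higher, 8% lower). For SPI against CAS 1 of the 6 genes tested passed, Mitf, lower, where 25.4% of all genes passed (10.7% higher, 14.6% lower). For SPI+E2 against CAS limma called 0 of 6 (1 at an unadjusted p under 0.05, and 1 at an unadjusted p from the unmoderated model), with 12.9% of all genes called. For SPI+E2 against E2 it called 0 of 6 (1 unadjusted, 1 unadjusted and unmoderated), with 15.5% called. Arrays did not overlap between E2 and CAS for 2 of 7 genes, Tyrp1 and Mitf, both higher, and 34.5% of all genes did not overlap there (16% higher). Tyrp1 was chosen by its rise there, so its place in this count came with the choice, and only Mitf (0.07 log2 units) adds to it. For SPI+E2 against SPI arrays did not overlap for 3 of 7 (Tyrp1, Pmel and Mitf), with 30.5% of all genes. For SPI against CAS it was 3 of 7 (the same genes), with 40%. For SPI+E2 against CAS the count was 2 of 7 (Tyrp1 and Mitf), with 34.3%. For SPI+E2 against E2 it was 3 of 7 (Tyrp1, Pmel and Mlana), with 36.4%. Tyrp1 is thus in every count, and the counts with CAS or E2 arrays use arrays by which it was chosen.

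Other genes of the melanosome and its signals were taken from lists and followed in SPI+E2 against SPI. There 17.1% of all genes passed (9.12% higher, 8% lower), the share to set beside the list counts of this comparison. Of 9 further melanosome genes, 2 were higher and 1 lower (median log2 difference -0.0048, against 0.01 over all genes). Gpnmb, a glycoprotein of melanosomes, osteoclasts and macrophages, read 0.42, 0.35 and 0.36 in SPI+E2 and -0.39, -0.43 and -0.36 in E2, with every CAS and SPI array between -0.03 and 0.02. It rose by 0.38 in SPI+E2 compared with SPI (SE 0.0385, limma adjusted p = 3.57e-05). That made it lowest in E2, the group where Tyrp1 was highest. Rab38, a small GTPase of melanosome cargo, was 0.16 higher (SE 0.0503, adjusted p = 0.0453), and the cystine transporter gene Slc7a11 fell by 0.39 (SE 0.0959, adjusted p = 0.0164). Oca2 and Slc45a2 were not named in the array annotation used here and were not analysed.

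Of 15 genes of melanosome formation and transport, 1 was higher and 2 lower (median -0.03), where 17.1% of all genes passed. Myo5a, the myosin that carries melanosomes and, in neurons, vesicles, fell by 0.35 (SE 0.0486, limma adjusted p = 0.000402). Ap3d1, of the sorting complex AP-3, fell by 0.22, and Dtnbp1, of the BLOC-1 complex, rose by 0.18. Of 13 ligands and receptors that act on melanocytes, 0 were higher and 1 lower (median 0.03), the neuregulin gene Nrg1 at -0.16. Kitlg, the ligand of Kit, did not pass (0.05, adjusted p = 0.487). Edn3, Mc1r and Pax3 were not analysed here.

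Of 10 transcription factors of melanoblasts, 1 was higher and 2 lower (median -0.0066), where 17.1% of all genes passed. Sox10, which acts upstream of Mitf and is also the master regulator of Schwann cells, read -0.21, -0.31 and -0.26 in CAS, 0.27, 0.29 and 0.36 in SPI, 0.23, 0.13 and 0.03 in E2, and -0.35, -0.03 and -0.04 in SPI+E2. It rose by 0.57 with SPI (SE 0.0804, limma adjusted p = 0.000362) and fell by 0.45 in SPI+E2 compared with SPI (SE 0.0804, adjusted p = 0.00243). Tfap2b, of the neural crest, was 0.52 higher in SPI+E2 than in SPI (SE 0.0408, adjusted p = 5.48e-06), and Lef1, of Wnt signaling, fell by 0.26 (SE 0.0598, adjusted p = 0.0108). Against CAS, SPI gave 2 of the 9 melanosome genes and 1 of the 15 transport genes higher. It gave 2 of the 10 factors higher and 1 lower. For the 13 ligands and receptors limma called 0 (4 at an unadjusted p under 0.05, 3 unadjusted and unmoderated). In this comparison 25.4% of all genes passed (10.7% higher, 14.6% lower).

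The mean levels of the Schwann cell and sensory neuron lists were, like Tyrp1, higher in SPI and E2 than in CAS and SPI+E2. Melanoblasts and Schwann cells share a precursor along peripheral nerve. The mean over 14 Schwann cell genes ran from -0.29 to -0.22 over the CAS arrays, 0.38 to 0.39 in SPI, 0.25 to 0.26 in E2 and -0.30 to -0.27 in SPI+E2. Over 12 sensory neuron genes it ran from -0.37 to -0.36, from 0.27 to 0.30, from 0.26 to 0.28 and from -0.23 to -0.22 in the same order. In SPI+E2 against SPI 13 of the 14 Schwann cell genes were lower (median -0.79), among them Mal at -1.04, Pmp22 at -0.97, Mbp at -0.95 and S100b at -0.94, and 10 of the 12 sensory neuron genes (median -0.61), among them Tac1 at -0.88, Calca at -0.71, Avil at -0.66 and Scn11a at -0.64. Against CAS, SPI gave 13 of 14 Schwann cell genes higher (median 0.66) and 11 of 12 sensory neuron genes higher (median 0.74). Among all genes, 8% passed as lower in SPI+E2 against SPI and 10.7% as higher in SPI against CAS. Not every gene was higher in E2 than in CAS: Mbp (-0.02), Cnp (0.03) and Gjb1 (0.02) of the Schwann cell list and Runx1 (-0.02) of the sensory neuron list had overlapping arrays there, and Cnp, Gjb1 and Runx1 are named only for this. The order of groups differed from that of Tyrp1 in part. The Schwann cell mean was higher in every SPI array than in any E2 array, where Tyrp1 was higher in E2, and its SPI+E2 and CAS arrays overlapped, where those of Tyrp1 did not. The sensory neuron mean overlapped between SPI and E2 and was lower in CAS than in SPI+E2, as for Tyrp1. The part of nerve content in the Tyrp1 values was not tested.

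**Figure D4:**
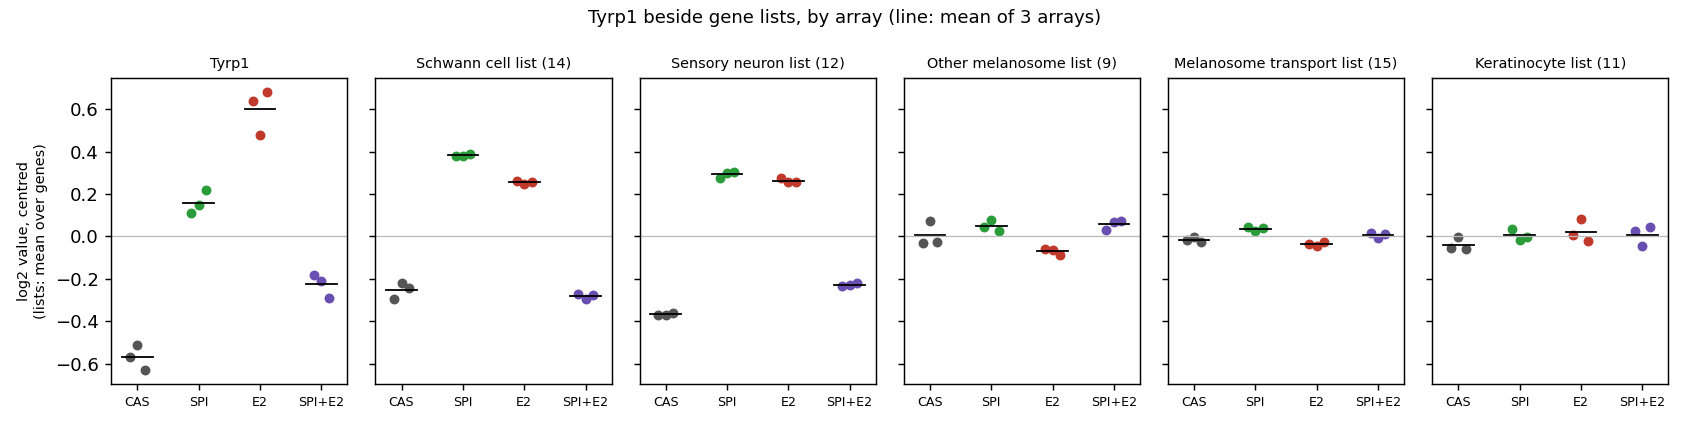
Centred log2 values (vertical axis) of Tyrp1 and of the mean over the genes of 5 lists, with the number of genes in brackets, by group, 1 point for each array and a line at the mean of 3 arrays. The Schwann cell and sensory neuron means are high in SPI and E2 and low in CAS and SPI+E2, and the other 3 lists stay between -0.09 and 0.08.

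Markers of other cells that could hold these genes were followed in the same comparison, SPI+E2 against SPI. There 17.1% of all genes passed (9.12% higher, 8% lower). Keratinocyte genes, for skin, had 1 of 11 lower (Perp at -0.25, median over the list -0.0010), and pigment epithelium genes 1 of 7 lower (Rlbp1 at -0.40, median 0.0073). Of 11 mast cell genes limma called 0 (2 at an unadjusted p under 0.05, 1 unadjusted and unmoderated, median -0.06). Blood progenitor genes had 1 of 9 higher, Meis1, and 2 lower, Myb and Lyl1 (median -0.12), and red cell precursor genes 3 of 10 lower, Alas2 at -0.28, Slc4a1 at -0.15 and Car1 at -0.13 (median -0.10). The mean of this last list ran from 0.44 to 0.46 over the CAS arrays, 0.04 to 0.05 in SPI, -0.06 to -0.02 in SPI+E2 and -0.32 to -0.27 in E2. Between CAS and E2 it thus ran opposite to Tyrp1, and between SPI and SPI+E2 the same way. Osteoclast genes, which Mitf also serves, had 3 of 10 higher: Mmp9 at 0.16, Acp5 at 0.15 and Ctsk at 0.11 (median 0.08). Endothelial genes had 5 of 10 higher (median 0.16), among them Pecam1 at 0.22, Egfl7 at 0.21, Flt1 at 0.19 and Tek at 0.19, and of 8 osteoblast genes limma called 0 (0 at an unadjusted p under 0.05, 1 unadjusted and unmoderated, median -0.02). The part of these cells in the values of Mitf, Kit and Tyrp1 was not tested.

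The genes whose pattern over the 12 arrays was most like that of Tyrp1 were none of the other pigment genes. By Pearson correlation they were Sostdc1 (r = 0.987), an antagonist of BMP and Wnt signals, Fbln2 (0.983), a matrix fibulin, Prnp (0.982), the prion protein, Frmpd1 (0.977), Ptprf (0.975), a receptor phosphatase, Meg3 (0.958), an imprinted noncoding RNA, S100a6 (0.958) and Cd9 (0.956). These correlations describe 12 arrays in 4 groups that share 1 normalization. Sostdc1 came closest in size as well, with means of -0.49 in CAS, -0.15 in SPI+E2, 0.15 in SPI and 0.59 in E2. Its arrays read -0.44, -0.54 and -0.48 in CAS, -0.09, -0.20 and -0.15 in SPI+E2, 0.09, 0.24 and 0.13 in SPI, and 0.59, 0.54 and 0.65 in E2. Within the pigment genes, the correlation of Tyrp1 was -0.17 with Dct, 0.15 with Pmel, -0.36 with Tyr, -0.66 with Mlana, -0.08 with Mitf and 0.19 with Kit. The full separation of groups in the order CAS, SPI+E2, SPI and E2 was shared by 13 genes (0.0914%), a count made after the values were seen: Tyrp1, Sostdc1, Fbln2, Prnp, Frmpd1, Ptprf, Meg3, S100a6, Dynlt3, Mllt11, Rbms3, Synpr and Tmem184c.

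Dct and Kit had less close companions. Those most like Dct were Fam3a (r = 0.846), Tex264 (0.842), Igbp1 (0.829), Tnfrsf25 (0.827) and Or8g23 (0.825), and those most like Kit were Lrrc10 (0.904), Rims1 (0.9), Lrrc56 (0.896), Clca4 (0.882) and Dsp (0.871). No pigment gene was among them.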

How the data were processed

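RNA was measured on 12 Affymetrix rat genome arrays, 3 for each of 4 groups taken from the sample labels. GCOS and RMA are listed, with no version, in the submitters' processing notes, and the authors' log2 values were normalized by chip and by gene (GeneSpring) before being deposited. Such values give no signal over background, so whether a gene without a difference was detected at all cannot be read from them. Precision is limited by how many arrays there were. The log base is that of the methods.

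From 31099 probe sets 57 controls were left out. A single symbol was given for 20826 probe sets, several for 436 and none for 9780, in an annotation whose symbols the GRCr8 gene table left unchanged (0). Probe sets were averaged to 14217 genes. All 12 arrays entered 1 limma 3.58.1 model with a mean per group (statmod 1.5.0, R 4.3.3), adjusted over all genes after Benjamini and Hochberg, and calls were made at 0.05. The steps were tested on simulated data. Unused columns of sample values numbered 0.

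The genes and lists were chosen with earlier results of these data known. Named beside the 8 genes were fixed genes of the pathway, up to 4 genes of each list with the largest change among those past the test in SPI+E2 against SPI, and the 8 genes most correlated with Tyrp1 (5 for Dct and Kit). Runx1 was on both the sensory neuron and the blood progenitor list. Promoter sequences are those of RefSeq, found for all 8 genes. Other settings were: dropping each array in turn; a block for pool number; fitting only the groups compared; the most variable probe set of each gene alone; dropping genes of below-median spread; quantile scaling or centring of arrays by their medians; and limma with a trend and robust variances, with weights for arrays or with unmoderated variances (unadjusted p).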

Additional observations from a re-analysis of the deposited data

Results flagged for a closer look

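For several genes the arrays lay on opposite sides of a group mean on the 2 backgrounds. Set against the mean of the group without the agent, every array of one group was above it and every array of the other below. This was looked for only in the measured pigment genes, Sox10, Gpnmb and Kitlg. The share of all genes that do so was not counted, so the pattern cannot be called particular to these genes. The groups themselves could overlap, as those of Tyr and Mlana did between E2 and CAS and those of Mitf between SPI+E2 and E2. The differences between the changes were not tested, since each uses the E2 against CAS contrast by which the set was chosen. With E2, Tyrp1 rose on casein and fell on the soy diet, a difference of -1.56 log2 units between the changes, and with SPI it was higher without E2 and lower under E2, the same -1.56. Sox10 behaved alike, at -0.83 for E2 and -0.83 for SPI. With E2, Mlana and Tyr were lower on casein and higher on the soy diet (0.40 and 0.22), as was Gpnmb (0.77). On the soy diet alone neither Mlana nor Tyr passed (limma adjusted p = 0.4495 and 0.153). With SPI, Pmel was higher without E2 and lower under it (-0.37), and Mitf was lower without E2 and higher under it (0.24). Under E2 alone neither passed, at -0.05 for Pmel (limma adjusted p = 0.822) and 0.05 for Mitf (adjusted p = 0.562). Groups of 3 arrays were too small for a search for single outlying arrays.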

How the results depend on the processing

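The fall of Tyrp1 in SPI+E2 against SPI kept its direction and passed in every alternative run. It ran from -0.4981 with single probe sets, here 1382819_at, to -0.358 without SPI+E2 3. The other set, 1385575_at, was not among the alternatives and did not pass alone (-0.28, limma adjusted p = 0.121). Leaving out a CAS or E2 array cannot change this difference, which stayed at -0.3883, but only its spread. Leaving out each array gave the Tyrp1 difference -0.4117 to -0.358, and 2 to 4 of the 7 genes called. The share of all genes called was not counted under the alternatives, so the counts of pigment genes here and below cannot be set against it. Of the 6 genes tested for SPI against CAS, 1 was called, 2 with a replicate block or with genes of low spread left out, 0 with single probe sets, and 1 to 2 when an array was left out, the 2 being without SPI 2 or SPI 3, where Pmel also passed. For SPI+E2 against E2 none of 6 was called, 1 with quantile normalization, array weights or the filter on spread, and 0 to 1 without an array, the 1 being Mlana without SPI 1 or E2 2. The unmoderated model was read at an unadjusted p, so both choices changed at once: it called 2 for SPI against CAS, 1 for SPI+E2 against E2 and 1 for SPI+E2 against CAS (0 as reported). The genes it added, Pmel, Mlana and Mitf in that order, were under 0.05 before adjustment with moderation too. The Tyrp1 difference of E2 against CAS was 1.4017 with quantile normalization, 1.639 with single probe sets and 1.13 to 1.2333 without an array. Uncalled values near 0 changed sign when an array was left out: Mlana SPI against CAS ran from -0.1528 to 0.0159 (without CAS 1), Dct SPI against CAS from -0.0824 to 0.0443 (without CAS 3, and 0.0356 without SPI 2), and Kit SPI+E2 against E2 from -0.0165 (without E2 3) to 0.1071. Dct had no value after the filter on spread. The causes were not tested. Of the counts over the lists, 2002 stayed within 1.5 times and 350 did not. Pool numbers are shared between groups, but nothing says that they pair the arrays: the correlation of same-numbered arrays ran from -0.074 to 0.244, and 4 of 12 arrays correlated best with their own number. The replicate block left Tyrp1 at -0.3883 (limma adjusted p = 0.00269) and added the call of Pmel in SPI against CAS (0.323, adjusted p = 0.0419).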
